A study of Homo sapiens with 4 samples.

Results

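The genes described here encode the protein subunits of the mitochondrial ribosome, taken as every row of the deposited count table with a symbol that begins MRPL or MRPS, followed by a number and at most 1 letter from A to C. The rule found 78 of the 60662 rows, 49 MRPL genes and 29 MRPS genes, and leaves out their pseudogenes. U937 is a human myeloid line derived from a histiocytic lymphoma. Phorbol 12-myristate 13-acetate (PMA), an activator of protein kinase C, drives it towards a macrophage-like state. The groups are U937 cells kept in 10 nM PMA for 72 h (n = 2) and U937 cells kept without PMA for 72 h (untreated, n = 2). Each group has 1 library from lot 1 and 1 from lot 2, so the spread is that between these 4 libraries of 1 cell line, which the labels do not describe as separate cultures beyond the lot. Total counts were 35739833 and 50822971 in the PMA libraries and 54915928 and 41308603 in the untreated libraries, and the common biological coefficient of variation was 0.626. Levels below are CPM, the counts per 1000000 of the library size scaled by edgeR's TMM factors, and are given as lot 1, then lot 2.

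The mitochondrial ribosome sits in the matrix of the organelle and translates the 13 mRNAs of mitochondrial DNA, which all encode subunits of the respiratory chain and ATP synthase. Its RNAs come from mitochondrial DNA, but all its proteins are encoded in the nucleus, made on cytosolic ribosomes and imported. MRPL genes are named for the large subunit, which forms peptide bonds, and MRPS genes for the small subunit, which reads the mRNA, although the proteins of MRPS30 and MRPS18A are found in the large subunit of the mammalian particle. Some members are relatives of bacterial ribosomal proteins, while others, among them MRPL37 and MRPS34, have no bacterial counterpart.

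The start regions of 3 members are shown because MRPL3 gave the only call below, MRPL37 the next smallest p, and MRPL52 the largest difference in the opposite direction. They are 120-base stretches upstream of the annotated start in RefSeq's GRCh38.p14, 5′ to 3′ on the gene's strand. Capitals mark CCGGAAG, a core of ETS-family sites such as those of GABP, in MRPL3 (chr3:131502972-131503091, minus strand). They mark CACGTG, the E-box bound by MYC and its relatives, in MRPL37 (chr1:54199967-54200086, plus strand), and AAGATGG, a core of YY1 sites, in MRPL52 (chr14:22829737-22829856, plus strand).
MRPL3: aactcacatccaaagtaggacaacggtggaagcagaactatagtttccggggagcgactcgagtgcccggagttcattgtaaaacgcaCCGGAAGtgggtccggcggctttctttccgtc
MRPL37: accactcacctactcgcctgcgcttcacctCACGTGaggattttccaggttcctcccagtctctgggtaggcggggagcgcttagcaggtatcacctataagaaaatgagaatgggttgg
MRPL52: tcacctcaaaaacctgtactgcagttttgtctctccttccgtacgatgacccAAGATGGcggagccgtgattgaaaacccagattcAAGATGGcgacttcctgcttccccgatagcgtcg
Windows of 300 bases, 250 before and 50 after the start, were matched by symbol for 69 of the 78 members, and each motif was searched on both strands. CCGGAAG was in 29 of these 69 windows (42.0%), against 10.7% of all 27305 promoters of the table and 19.2% of the 10233 promoters of genes tested here. AAGATGG was in 23 (33.3%), against 6.06% of all promoters and 7.88% of those of tested genes. CACGTG was in 6 (8.70%), against 7.43% and 10.3%. GCGCATG, a part of the site of NRF1, a regulator of nuclear genes for mitochondrial proteins, was in 7 (10.1%), against 4.67% and 7.71%. No motif is contained in another. At least 1 motif was found in 46 windows and none in 23, and 9 windows held both CCGGAAG and AAGATGG. The window of MRPL52 was among those 9 and also held GCGCATG, so the stretch shown above does not give all its motifs. A match is a stretch of letters and not a measured site. The median log2 fold change, PMA over untreated, was -0.77 for members with CCGGAAG and -1.06 for those without it. It was -0.78 with AAGATGG and -0.996 without, -0.67 with CACGTG and -0.99 without, and -0.82 with GCGCATG and -0.96 without.

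All 78 genes were detected above 0 in every library and passed edgeR's filter on low counts, with lowest counts of 91 and 123 in the PMA libraries and 320 and 266 in the untreated libraries. Most of them were lower with PMA. Their summed level was 2441 and 2544 CPM in the PMA libraries, against 3692 and 5628 CPM in the untreated libraries, so both PMA sums were below both untreated sums, with a log2 ratio of -0.60 in lot 1 and -1.15 in lot 2. The fitted log2 fold change was negative for 71 of the 78 genes, a sign held by 50.0% of the 16451 genes tested. Its median was -0.92 over the 78 genes and 0.00 over all genes tested. It was -0.91 for the MRPL genes, 45 of 49 negative, and -0.92 for the MRPS genes, 26 of 29 negative. Both PMA libraries were below both untreated libraries for 52 genes, against 29.4% of all tested genes, and above both for 5, against 31.0%. The groups overlapped for the other 21.

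At an adjusted p under 0.05 (edgeR's quasi-likelihood test, Benjamini-Hochberg over all genes tested), 1 of the 78 genes fell, MRPL3, and none rose, where 2.02% of all tested genes fell and 4.29% rose. That count is close to the background and is no result about the set. At an unadjusted p under 0.05, 31 genes were lower and 1 was higher, against 12.5% and 14.6% of all genes tested. The 1 call is 1.28% of the 78 genes, and the count depended on the tool and the libraries. With DESeq2, 21 of the 78 genes fell, against 10.3% of all genes tested, and 1 rose (MRPL52), against 13.0%. With limma-voom 6 fell (3.87% of all), with a filter of 5 CPM 8 (6.65%), without the untreated lot 1 library 22 (6.21%), without the untreated lot 2 library 3 (2.49%), where 1 also rose (4.94%), and without either PMA library none. In the authors' deposited table, 71 of the 78 genes had a negative log2 ratio of PMA to untreated and none had a q-value under 0.05 (lowest 0.0991, MRPL37), where 2.72% of the genes tested here fell and 5.44% rose by that q-value.

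**Figure D1:**
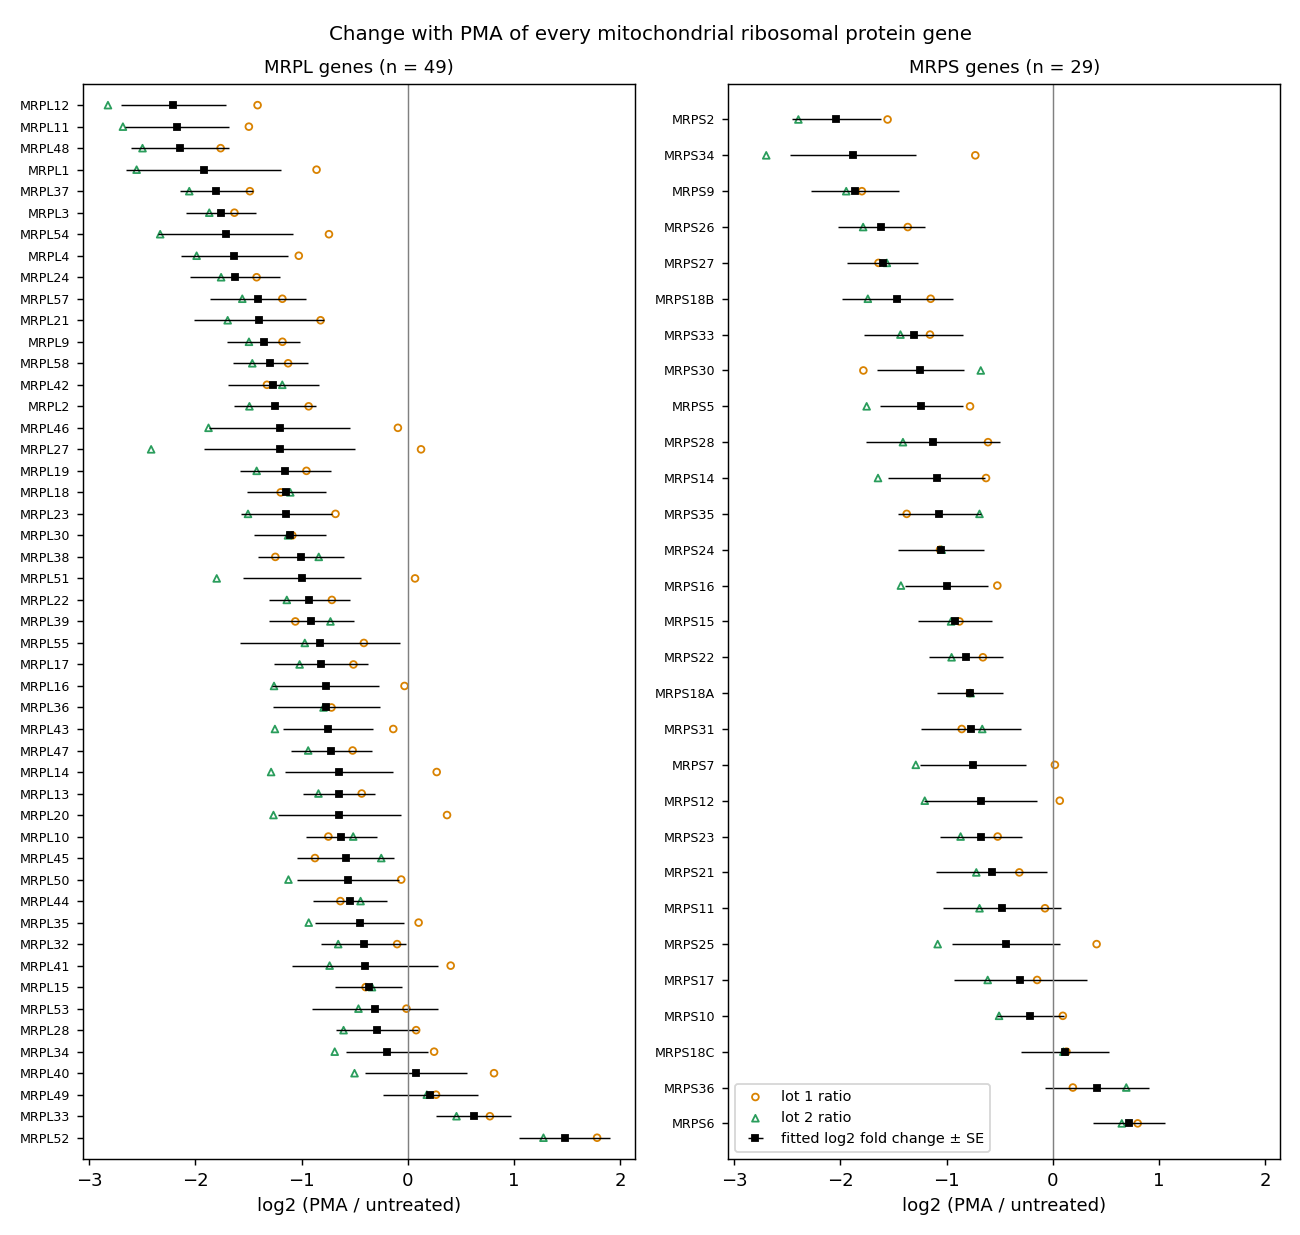
Fitted log2 fold change (PMA over untreated, x axis) of the 49 MRPL genes (left panel) and the 29 MRPS genes (right panel), ordered by value; squares with bars are the fit ± its standard error (SE), open circles the ratio in lot 1 and triangles the ratio in lot 2. 71 of the 78 squares lie left of 0, and MRPL52 is the farthest to the right at 1.48.

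MRPL3, a core large-subunit protein of the bacterial L3 family that lies near the peptidyl transferase centre, measured 29.7 and 30.8 CPM in the PMA libraries and 92.1 and 112 CPM in the untreated libraries. The gene was lower in both lots, as 35.9% of all tested genes were. It had the smallest p of the 78 genes, so the gap between its groups is no further result. Its log2 fold change was -1.76 ± 0.33 (SE), and the adjusted p of 0.0497 by edgeR lay just under the threshold. It no longer passed once lot was a blocking term (adjusted p = 0.0631), nor without PMA lot 1 (0.314), without PMA lot 2 (0.356), with RLE factors (0.0523) or without the filter (0.0501). It held in 7 of 13 alternatives. The other genes of the large subunit with the smallest p did not pass. MRPL37, a protein particular to mitochondria, had 85.2 and 86.5 CPM with PMA, against 238 and 360 CPM without (log2 fold change -1.80 ± 0.35, adjusted p = 0.051 by edgeR). The untreated lots were further apart than the PMA lots, but all 4 values kept the groups separate. MRPL37 had the next smallest p, so its separation is no further result either. MRPL12, the counterpart of the L7/L12 stalk protein that recruits translation factors, had 23.4 and 18.6 CPM with PMA and 62.5 and 132 CPM without, and its log2 fold change of -2.21 ± 0.49 was the lowest of the 78 (adjusted p = 0.064 by edgeR). MRPL11, at the base of that stalk, had 12.9 and 11.4 CPM with PMA and 36.4 and 72.9 CPM without (-2.17). MRPL48, found only in mitochondrial ribosomes, had 5.83 and 4.98 CPM with PMA and 19.8 and 28.1 CPM without (-2.15). For these stalk genes and MRPL48, every PMA value was below every untreated value, a pattern of 29.4% of all tested genes. They were named for a small p and a low log2 fold change, so the separation is no further result.

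MRPL24, of a family that lies by the peptide exit tunnel, had 22.0 and 29.1 CPM with PMA and 59.1 and 98.2 CPM without. MRPL9, of the bacterial L9 family, had 56.6 and 65.1 CPM with PMA and 128 and 183 CPM without. MRPL58, also called ICT1, a peptidyl-tRNA hydrolase built into the large subunit that can release stalled chains, had 22.3 and 19.6 CPM with PMA and 48.6 and 53.9 CPM without. The groups were separate for each of them, a pattern of 29.4% of all tested genes. These genes were named for a small p, so the separation is no further result. Their log2 fold changes were -1.62, -1.36 and -1.29, with adjusted p of 0.085, 0.081 and 0.090 by edgeR. MRPL1, whose family forms the mobile L1 stalk at the exit of the tRNAs, had 2.79 and 2.66 CPM with PMA but 5.06 and 15.6 CPM without. Its log2 ratio was -0.86 in lot 1 and -2.55 in lot 2, and the fitted log2 fold change was -1.92 ± 0.73.

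In the small subunit, MRPS2, whose bacterial counterpart is a late-joining subunit protein, had 28.6 and 28.9 CPM with PMA, against 84.1 and 152 CPM without (log2 fold change -2.04 ± 0.42, adjusted p = 0.057 by edgeR). MRPS27, a pentatricopeptide repeat protein, had 24.6 and 23.5 CPM with PMA and 76.9 and 69.5 CPM without (-1.60 ± 0.34, adjusted p = 0.059 by edgeR). For MRPS27 the replicates in each group were close and the lots gave nearly the same log2 ratio, -1.64 in lot 1 and -1.56 in lot 2. MRPS9, of the bacterial S9 family, had 12.2 and 8.87 CPM with PMA and 42.5 and 34.1 CPM without (-1.86). MRPS26, particular to mitochondria, had 40.7 and 52.3 CPM with PMA and 105 and 180 CPM without (-1.62). MRPS34 was less even: 29.5 and 21.3 CPM with PMA, against 49.0 and 138 CPM without, with a log2 ratio of -0.73 in lot 1 and -2.70 in lot 2 (adjusted p = 0.123 by edgeR). The groups did not overlap for any of these 5 small-subunit genes. They were named for a small p or a low log2 fold change, so the separation is no further result.

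**Figure D2:**
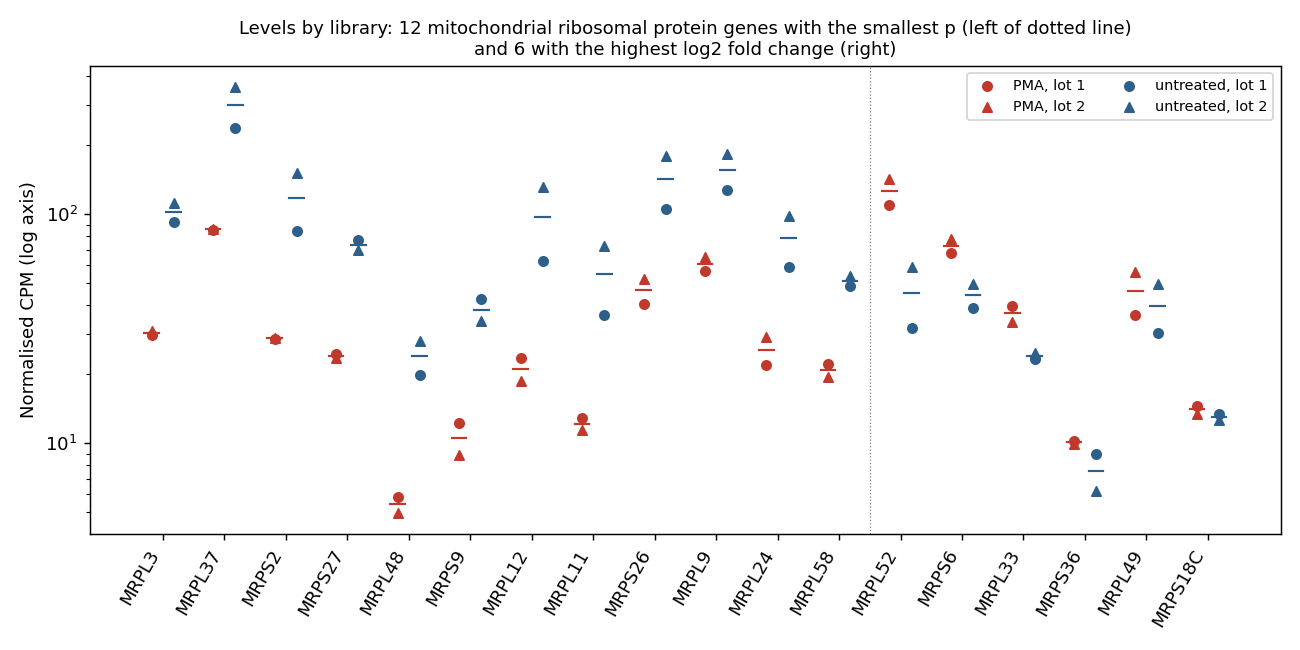
Normalised CPM (y axis, log scale) in each library of the 12 genes with the smallest p, left of the dotted line, and the 6 with the highest log2 fold change, right of it. Red points are PMA and blue points untreated, circles lot 1 and triangles lot 2, and short bars the group means; MRPL3 stands at 29.7 and 30.8 with PMA and at 92.1 and 112 without.

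The 3 paralogs of the S18 family, whose products occupy different places in the particle, took different values. MRPS18A had 47.2 and 47.6 CPM with PMA and 81.2 and 81.4 CPM without, with very small gaps within each group (log2 fold change -0.78 ± 0.31, adjusted p = 0.195 by edgeR). MRPS18B had 3.84 and 3.59 CPM with PMA and 8.51 and 12.0 CPM without (-1.47 ± 0.52). MRPS18C had 14.6 and 13.5 CPM with PMA and 13.4 and 12.6 CPM without (0.11 ± 0.42), and that sign turned under upper-quartile factors (-0.055) and without PMA lot 1 (-0.0099). The difference between the paralogs was not tested.

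A small number of genes went the other way. MRPL52, a large-subunit protein with no bacterial counterpart, had 110 and 142 CPM with PMA and 31.9 and 58.7 CPM without. Both PMA libraries were above both untreated libraries, by a log2 fold change of 1.48 ± 0.43. The gene did not pass edgeR's test (adjusted p = 0.103) and passed in 2 of 13 alternatives. With 1 library left out, its log2 fold change ran from 1.04 (without untreated lot 1) to 1.98 (without untreated lot 2). MRPS6, of the bacterial S6 family, had 67.9 and 78.0 CPM with PMA and 39.1 and 49.8 CPM without (0.72 ± 0.34, adjusted p = 0.262 by edgeR). MRPL33, of the bacterial L33 family, had 39.9 and 33.9 CPM with PMA and 23.4 and 24.7 CPM without (0.62). MRPS36, whose protein has since been assigned to the 2-oxoglutarate dehydrogenase complex rather than the ribosome, had 10.2 and 9.95 CPM with PMA and 8.97 and 6.17 CPM without (0.41). MRPL49, a large-subunit protein particular to mitochondria, had 36.2 and 56.1 CPM with PMA and 30.1 and 49.6 CPM without (0.21), so its groups overlapped, and the sign turned without PMA lot 2 (-0.12) and without untreated lot 1 (-0.16). These 5 genes and MRPS18C were the 6 that were higher in both lots, a pattern of 37.8% of all tested genes.

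No source used here says whether counting used strand, so the values of some overlapping genes are given here, with those of the gene downstream of MRPL52. In GENCODE 29, 34 of the 78 genes overlap another gene that reached 3 CPM in some library, 8 of them on the same strand. In these 40 overlapping pairs the neighbour's log2 fold change was negative in 26 and positive in 14, and 1 neighbour rose and 1 fell by edgeR. The next gene downstream was looked up only for MRPL52, which had the highest log2 fold change of the 78 genes, so no other adjacent gene stands beside it. On the strand of MRPL52 it is MMP14, a membrane-bound matrix metalloproteinase. MMP14 had 609 and 672 CPM with PMA and 1.22 and 1.14 CPM without and rose (log2 fold change 9.08 ± 0.40, adjusted p = 0.0148 by edgeR). MRPS6 overlaps SLC5A3, the sodium/myo-inositol transporter, on the same strand, and SLC5A3 had 131 and 53.8 CPM with PMA and 28.6 and 13.8 CPM without (2.12, adjusted p = 0.107 by edgeR). MRPL33 overlaps BABAM2 on the same strand, at 51.0 and 45.8 CPM with PMA and 77.3 and 79.4 CPM without. On the opposite strand, SYVN1 overlaps MRPL49 and had 95.9 and 165 CPM with PMA and 32.1 and 42.0 CPM without. FAU also overlaps MRPL49 on that strand and went the other way. It had 163 and 178 CPM with PMA and 243 and 530 CPM without (-1.18). TMEM63B overlaps MRPL14 on the opposite strand and rose (3.14, adjusted p = 0.0223 by edgeR). NCAPD2, a condensin subunit gene on the strand opposite MRPL51, had 58.6 and 42.5 CPM with PMA and 339 and 208 CPM without and fell (-2.44, adjusted p = 0.0393 by edgeR, but 0.102 without PMA lot 1 and 0.207 without PMA lot 2). DNAJC9, on the strand of MRPS16, had 4.45 and 3.61 CPM with PMA and 18.1 and 42.7 CPM without (-2.91, adjusted p = 0.057 by edgeR). TMEM8A, on the strand of MRPL28, had 167 and 192 CPM with PMA and 54.8 and 67.6 CPM without (1.55, adjusted p = 0.056 by edgeR). CCDC142, on the strand of MRPL53, had a log2 fold change of 1.88. Those of MRPL28 (-0.29) and MRPL53 (-0.31) were negative. The neighbours named here are a part of the 40 pairs and were picked by no stated rule. The part of these neighbours in the values of the mitochondrial ribosomal protein genes was not tested. Rows named as pseudogenes of the set were low: 75 rows summed to 5.19 and 7.77 CPM with PMA and 7.47 and 3.99 CPM without.

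By lot, 59 genes were lower with PMA in both lots, where 35.9% of all tested genes were, 6 were higher in both, and 13 changed sign between the lots. The median log2 ratio was -0.67 in lot 1 and -1.12 in lot 2, and 63 genes had the more negative ratio in lot 2. At least 2-fold lower levels were found for 24 genes in lot 1 (23.8% of all tested genes) and 44 in lot 2 (25.9%), and for 20 in both (15.0%), each from 1 library per arm and without a test. The 13 genes of mixed sign were MRPL14, MRPL20, MRPL27, MRPL28, MRPL34, MRPL35, MRPL40, MRPL41, MRPL51, MRPS7, MRPS10, MRPS12 and MRPS25. Among these 13, the widest splits were MRPL27 (log2 ratio 0.12 in lot 1 and -2.42 in lot 2), MRPL51 (0.07 and -1.80) and MRPL20 (0.37 and -1.26). MRPL20 had 40.9 and 38.4 CPM with PMA and 31.6 and 92.2 CPM without. In these 3 genes the untreated lot 2 library stood above the other 3.

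The lots differed mainly in the untreated cells. The level in lot 2 was above that in lot 1 for 35 of the 78 genes with PMA (median ratio of lot 2 to lot 1 0.954, range 0.430 to 2.36) and for 62 without PMA (median 1.49, range 0.594 to 3.64). Genes of higher GC content tended to have the higher ratio. Across the 78 genes, Spearman's rho between the ratio and GC content was 0.271 with PMA and 0.523 without, and across 13870 tested genes it was 0.308 and 0.404. All genes of a library share its preparation and depth, so these are descriptions. The fitted log2 fold change was nearly flat with GC content (rho -0.179 across the 78 genes and -0.01 across the 13870) and with transcript length (0.04). Whether base composition plays a part in the larger difference of lot 2 was not tested per gene. With an offset for length and GC content together with the lot as a block, the median log2 fold change of the 78 genes was -0.89. In that fit the median of all genes also moved, to -0.14.

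**Figure D3:**
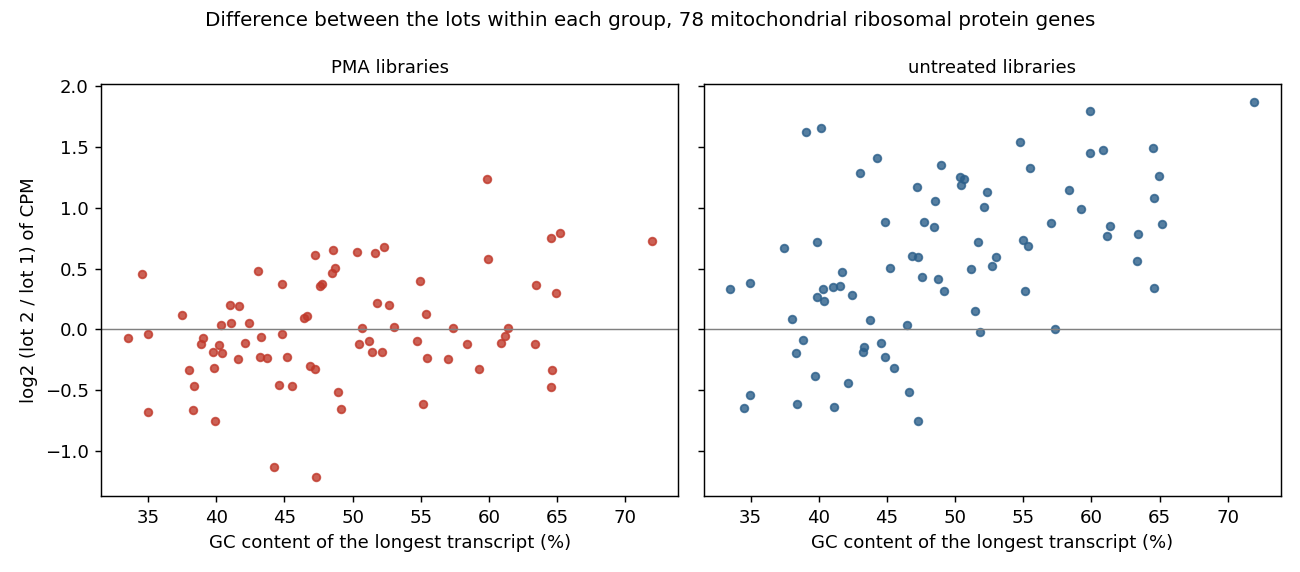
Log2 ratio of the level in lot 2 to that in lot 1 (y axis) against the GC content of the longest transcript in percent (x axis) for the 78 genes, PMA libraries on the left and untreated libraries on the right. In the PMA panel 35 points lie above 0, and in the untreated panel 62 do.

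Levels per length, in CPM per kilobase of the shortest principal transcript in GENCODE 29, spanned 33.6-fold between the highest and the lowest gene when ordered by the mean over both groups. By that mean MRPL14 was the highest, at 110 ± 12.6 with PMA and 173 ± 105 without (SD, n = 2 each). Within the groups the order differed: MRPL52 was the highest with PMA (113 ± 20.7, against 40.8 ± 17.0 without), and MRPL37 without PMA. By the mean, MRPL14 was followed by MRPL37 (57.9 ± 0.63 with PMA and 202 ± 57.8 without), MRPS24 (70.9 ± 21.0 and 147 ± 42.4), MRPL34 (98.4 ± 29.3 and 113 ± 17.5) and MRPL4 (45.3 ± 6.6 and 140 ± 81.5). The spreads of these neighbours in the order overlap in untreated cells. The lowest by the mean were MRPL50 (3.4 ± 1.1 with PMA and 5.0 ± 0.93 without), MRPL1 (1.8 ± 0.063 and 6.9 ± 5.0), MRPS23 (3.5 ± 0.78 and 5.6 ± 0.31), MRPS18B (2.4 ± 0.11 and 6.7 ± 1.6) and MRPS17 (5.0 ± 2.8 and 6.2 ± 2.2). The order depends on the transcript chosen. With the longest principal transcript, an alternative added after the data were seen, 5 of the 78 genes moved by at least 10 ranks, among them MRPS33 to rank 77 and MRPL42 to rank 78, below the genes just named. MRPL34 moved to rank 13, and the span was 73.7-fold. Across groups, levels per length on the shortest transcript had a Spearman's rho of 0.869 over the 78 genes, from libraries that share lots.

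The rest of the mitochondrial translation machinery was taken from lists of its known parts, and none of their 74 tested genes passed edgeR's test. At an unadjusted p under 0.05, 20 of these were lower and 2 higher, against 12.5% and 14.6% of all genes tested. With DESeq2 15 fell and 1 rose, against 10.3% and 13.0%. All 5 ribosomal subunits with other symbols had a negative log2 fold change (median -0.84). DAP3, a GTP-binding protein of the small subunit, had 81.5 and 91.5 CPM with PMA and 143 and 186 CPM without. GADD45GIP1 (CRIF1), at the exit tunnel, had 32.5 and 18.3 CPM with PMA and 40.8 and 140 CPM without, and PTCD3, a small-subunit protein, 31.5 and 22.0 CPM with PMA and 52.2 and 43.3 CPM without. Of 27 assembly factors, 25 had a negative value (median -0.88). RBFA, a small-subunit maturation factor, had 11.7 and 8.91 CPM with PMA and 31.3 and 47.6 CPM without (log2 fold change -1.94, adjusted p = 0.066 by edgeR). RPUSD3 (-1.18) and METTL17 (-1.38), also assembly factors, had the next smallest p. YBEY, an RNA-processing nuclease of the mitochondrion, went the other way, with 8.22 and 8.57 CPM with PMA and 2.39 and 2.71 CPM without (1.72, adjusted p = 0.122 by edgeR), and was picked after its values were seen.

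Of 14 translation factors tested, 10 had a negative value (median -0.57). TUFM, the elongation factor that brings aminoacyl-tRNA to the ribosome, had 183 and 145 CPM with PMA and 436 and 626 CPM without (log2 fold change -1.70, adjusted p = 0.056 by edgeR). LRPPRC, which stabilises mitochondrial mRNAs, had 127 and 94.7 CPM with PMA and 389 and 270 CPM without (-1.57, adjusted p = 0.067 by edgeR). C12orf65 (MTRFR), a release factor relative, had 8.78 and 13.0 CPM with PMA and 22.3 and 34.9 CPM without. Of 19 mitochondrial tRNA synthetases tested of 20 listed, 16 had a negative value (median -0.88). SARS2, which charges serine tRNA, had 1.29 and 3.16 CPM with PMA and 13.3 and 13.4 CPM without (-2.58, adjusted p = 0.081 by edgeR), followed by FARS2 (-1.58) and MARS2 (-1.13). Of 9 genes for transcription and replication of mitochondrial DNA, 7 had a negative value (median -0.65), with the smallest p for the helicase TWNK (-1.26), the single-strand binding protein SSBP1 (-1.35) and the RNA polymerase POLRMT (-0.65). TFAM, which packages the DNA and starts its transcription, had 24.0 and 12.7 CPM with PMA and 43.5 and 24.2 CPM without (-0.89, adjusted p = 0.363 by edgeR), with lot 1 above lot 2 in both groups.

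Among 10 nuclear regulators of mitochondrial genes, MYC alone passed, and it fell, where 2.02% of all genes tested fell. MYC, a driver of ribosome production and growth, had 47.2 and 40.3 CPM with PMA and 330 and 364 CPM without (log2 fold change -2.99 ± 0.32, adjusted p = 0.0224 by edgeR). Its call was lost without PMA lot 1 and without PMA lot 2. With the lot as a block 2 of the 10 fell, against 1.48% of all genes tested. NRF1 had 13.2 and 16.9 CPM with PMA and 26.6 and 26.9 CPM without (-0.83, adjusted p = 0.256 by edgeR). GABPA, the DNA-binding part of GABP, had 34.2 and 21.3 CPM with PMA and 32.3 and 9.81 CPM without (0.40 ± 0.67), so its groups overlapped.

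The mRNAs that the mitochondrial ribosome translates were set beside these. So were nuclear genes of the respiratory chain and ATP synthase, and the protein genes of the cytosolic ribosome. The 13 mitochondrially encoded mRNAs summed to 23003 and 55975 CPM with PMA and 21552 and 68898 CPM without. Lot 2 was above lot 1 in both groups and the groups overlapped (median log2 fold change -0.40, 10 of 13 negative, 0 called by edgeR, with DESeq2 or at an unadjusted p under 0.05). The smallest p belonged to MT-ND1 (-1.31), MT-ND2 (-1.24) and MT-ND3 (-0.49), with an SE of 0.92, 0.95 and 0.47. Of 75 nuclear genes for respiratory-chain and ATP synthase subunits, 63 had a negative value (median -0.53) and 0 were called by edgeR. At an unadjusted p under 0.05, 10 were lower, against 12.5% of all genes tested. With DESeq2 6 fell, against 10.3%. Both counts are close to the background. NDUFV1 (-1.78) and CYC1 (-1.17), of complexes I and III, and ATP5MC2 (-1.38), of ATP synthase, had the smallest p. The sums of these 75 genes were 8878 and 8484 CPM with PMA and 10472 and 15038 CPM without. The 77 cytosolic ribosomal protein genes had all values negative, 76 lower in both lots, a median of -1.26 and sums of 36882 and 38251 CPM with PMA and 84202 and 97108 CPM without. Of these 77, 13 fell by edgeR, against 2.02% of all genes tested, among them RPSA (-2.05), RPL3 (-1.83) and RPS2 (-2.26). That count was 3 with the lot as a block (1.48% of all genes tested) and 64 with DESeq2 (10.3%), and it depended strongly on which library was left out. No difference between these lists and the mitochondrial ribosomal protein genes was tested.

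**Figure D4:**
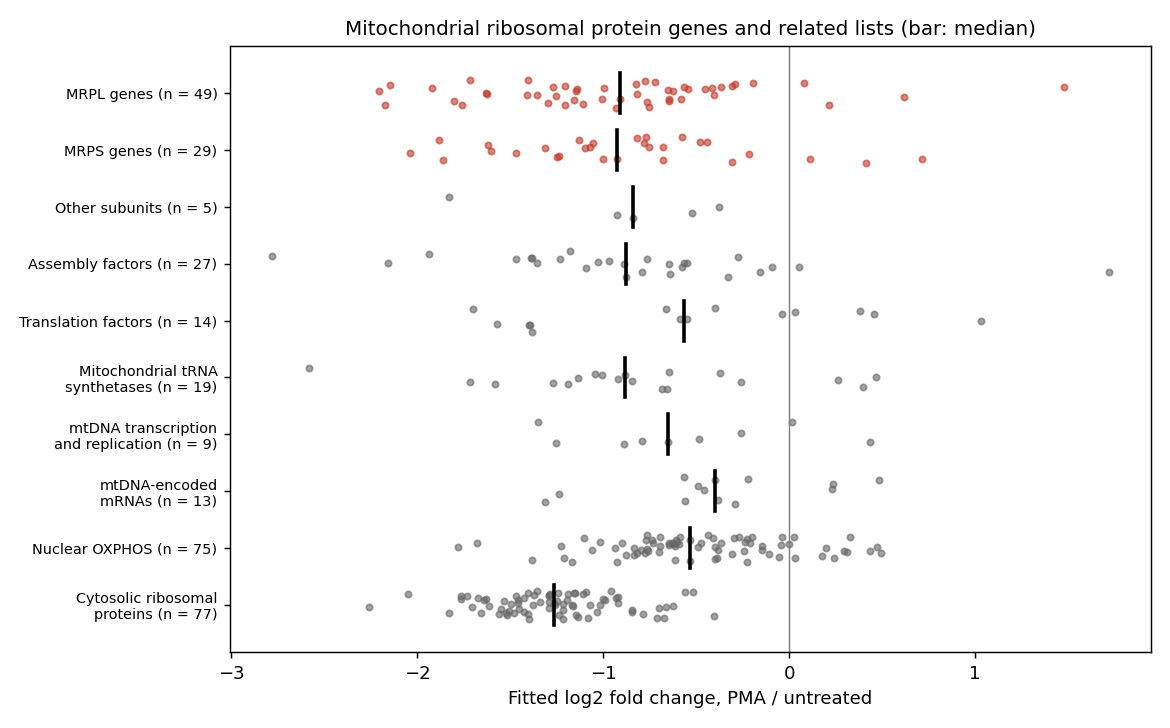
Fitted log2 fold change, PMA over untreated (x axis), of each tested gene in the MRPL and MRPS sets (red) and in related lists (grey), with the black bar at the list's median. The medians run from -0.40 for the mRNAs of mitochondrial DNA to -1.26 for the cytosolic ribosomal proteins, with the MRPL and MRPS genes at -0.91 and -0.92.

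All 10 myeloid markers checked were detected in every library. Their summed level was 14096 and 16365 CPM with PMA and 2163 and 2961 CPM without. ITGB2 and FCER1G were called as risen by edgeR, where 4.29% of all genes tested rose. The median log2 fold change of the 10 was 0.86. Of these markers, 6 were higher in both lots, 1 was lower in both (CSF3R, -0.24) and 3 were mixed, with LYZ at -1.63. With the lot as a block 3 rose, against 3.59% of all genes tested, TYROBP being added (adjusted p = 0.0425 by edgeR). Of 16 markers of other cell types, 12 or 13 were at 0 in each library, among them CD3D, MS4A1, HBB and CDH5. The list's summed level, 1467 and 1942 CPM with PMA and 69.1 and 56.2 CPM without, was nearly all PECAM1, which monocytes also express and which rose. In bulk RNA, fewer cells and less RNA per cell cannot be told apart, and a CPM is a share of the library, so these values say nothing of the amount of mitochondrial ribosome RNA per cell.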

How the data were processed

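Poly(A) RNA of 4 libraries of U937 cells was sequenced on an Ion Proton instrument, per the labels' protocols and the series' design text. HISAT2 2.1.0 and StringTie 2.1.1 are named, without roles, in the submitters' processing notes. No source used here gives the genome build, annotation, counting program or strand setting. The values tested are the authors' deposited estimated counts. They are whole numbers, so rounding changed none. A second table deposited by the authors gives a signal (the count times 1 factor per library), a log2 ratio, a p-value and a q-value per gene, and the test behind it was not stated in any source used here.

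All counts were fitted with edgeR 4.0.16 (quasi-likelihood, TMM, filterByExpr, group as the only term; R 4.3.3), and p-values were adjusted by Benjamini-Hochberg over 16451 genes. An SE is the size of the log2 fold change divided by the square root of F. The lot in the titles was taken to pair the libraries. Deviations from the group mean correlated only weakly between same-lot libraries (0.154). With 2 libraries per group, both lots give this same value. With 2 libraries per group, an exact two-sided permutation test cannot go under 0.333, so none was used. Alternatives used limma 3.58.1 (voom) and DESeq2 1.42.0, other scalings and filters, the lot as a block, and each library left out. The fit was tested on simulated data, with 50 genes changed at each of 4 folds. At an adjusted p under 0.05 it called 0 of 50 changed 2-fold and 6 of 50 changed 4-fold. It called 23 of 50 changed 8-fold and 42 of 50 changed 16-fold, so most smaller changes were missed there. Another 5 genes, left unchanged, were called as well. The changed genes were drawn from those above a minimum mean level, and no difference between lots was simulated. Lengths and GC content came from GENCODE 29, found for 99.1% of tested genes, which may not be the authors' annotation. Promoters came from RefSeq, and the YY1 and NRF1 motifs were cut to 7 letters after the data were seen.

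The genes and all lists were chosen with earlier results of these data known. Of the 78 genes, those named were the ones past the threshold, the 12 smallest p, the 6 lowest and 6 highest log2 fold changes, the 5 highest and 5 lowest levels per length, the S18 paralogs and, among genes of opposite sign in the lots, the 3 widest splits. In other lists, all genes called were named up to 5, otherwise the 3 with the smallest p, with MYC, NRF1, GABPA and TFAM always.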

Additional observations from a re-analysis of the deposited data

How the results depend on the processing

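The median log2 fold change of the 78 genes stayed negative under every alternative run, between -0.67 without untreated lot 2 and -1.20 without untreated lot 1. It was -1.09 with upper-quartile factors, which put the median of all genes at -0.17. The number of genes lower in both lots was 57 with RLE factors, 65 with upper-quartile factors and 70 with plain library sizes. The share of all tested genes is given here for TMM factors only (35.9%), so a shift of all genes is not separated from these counts. The count that fell was 1 in the edgeR fit. It was 0 at an adjusted p under 0.01, 0 with RLE factors (1.93% of all genes tested), 2 with upper-quartile factors (2.39%), 2 with library sizes that leave out the 20 most abundant and the mitochondrial genes (2.35%), 2 without the filter (1.38%), 6 with limma-voom (3.87%), 8 with a filter of 5 CPM (6.65%) and 21 with DESeq2 (10.3%). It was 0 with the replicate block, which pairs the libraries by lot (1.48%), and 0 with the length and GC offset and the block together (1.91%). Among the 78 genes the block changed no call other than MRPL3's. Leaving out 1 library gave 0 to 22: 0 without PMA lot 1 (1.51%), 0 without PMA lot 2 (0.438%), 22 without untreated lot 1 (6.21%) and 3 without untreated lot 2 (2.49%). The count that rose was 1 with DESeq2 and 0 to 1 with 1 library left out. Of the 5 other lists of mitochondrial translation, 3 genes fell with the 5 CPM filter, 15 with DESeq2, 2 with limma-voom and 0 to 10 with 1 library left out, and 1 rose with DESeq2. The sign turned for 15 of the 78 genes with 1 library left out, 6 of them among the 32 genes named by rule. MRPS18C was -0.055 with upper-quartile factors. With 1 library left out, the log2 fold change ran from -0.0099 to 0.19 for MRPS18C, from -0.16 to 0.61 for MRPL49, from -0.60 to 0.10 for MRPL34, from -1.23 to 0.16 for MRPL14, from -1.10 to 0.19 for MRPS17 and from -1.28 to 0.32 for MRPL20. The causes were not tested. With 1 library left in a group, that library is assumed to vary like the other group's. Each of the 78 genes had at least 91 counts in every library.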
